A study of Homo sapiens with 6 samples.

Results

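The exons described here are internal exons of over 60 and under 500 nt that lie between 2 long introns. At least 10000 nt separate such an exon from each flanking exon of its annotated skipped-exon event, and other annotated exons can lie within these gaps. The exons were chosen from the coordinates of the annotated skipped-exon events alone, without use of any measured level. Where several events shared a middle exon, the event with the most reads that tell inclusion from exclusion was kept. The rule found 3082 exons in 1884 genes, of 40658 exons in all. The cells were MDA-LM2, a lung-metastatic derivative of the human breast cancer line MDA-MB-231, and RNA was taken 48 h after transfection with small interfering RNAs (siRNAs). By the labels, 2 libraries carry a control siRNA (siCtrl), 3 carry siSNRPA1 and 1 carries siSNRPB. The authors deposited 1 set of values per group, so each group is 1 pool without replicates, no standard deviation can be given, and a test on reads compares 2 pools rather than 2 conditions. No other treatment or allele is given for any group, and the siCtrl cells were also transfected. All groups come from 1 cell line. The siSNRPB pool is 1 library, and the labels do not say which siRNA it carried.

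An exon is recognised by the splicing machinery through its ends. U1 binds the 5′ splice site at its downstream end, and U2 binds the branch point upstream of its 3′ splice site. When the flanking introns are long, pairing of these factors across the exon (exon definition) is held to come first, and pairing across the intron follows. SNRPA1 encodes U2 A′, a protein of the U2 particle, and SNRPB encodes SmB/B′, part of the protein ring shared by U1, U2, U4 and U5. Loss of a middle exon joins its neighbours directly, and the reading frame is kept when the length of the exon is a multiple of 3.

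The 6 exon sequences below are those of the wholly coding exons of up to 300 nt with the largest falls against siCtrl among the exons picked by the naming rule, which asks for a minimum of reads for most of them. VAMP7 and ZC3H14 tied at a fall of 0.38, and the one with more reads is shown. Exons that rose are not shown. They are shown because they are the stretches that were left out more often after 1 or both knockdowns. They were read 5′ to 3′ from the GENCODE 29 transcripts (hg38 build), and capitals mark the last 3 bases of the exon, the exon side of the 5′ splice site.
RGL1, chr1:183806375-183806485, plus strand: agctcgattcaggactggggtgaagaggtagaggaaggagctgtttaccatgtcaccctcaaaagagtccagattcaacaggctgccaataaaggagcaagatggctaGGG
CLPB, chr11:72402966-72403052, minus strand: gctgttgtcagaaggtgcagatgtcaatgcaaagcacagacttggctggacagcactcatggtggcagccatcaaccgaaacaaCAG
NFIA, chr1:61426465-61426556, plus strand: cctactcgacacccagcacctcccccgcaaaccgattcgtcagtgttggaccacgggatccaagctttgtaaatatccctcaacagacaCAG
CHN1, chr2:174877840-174878128, minus strand: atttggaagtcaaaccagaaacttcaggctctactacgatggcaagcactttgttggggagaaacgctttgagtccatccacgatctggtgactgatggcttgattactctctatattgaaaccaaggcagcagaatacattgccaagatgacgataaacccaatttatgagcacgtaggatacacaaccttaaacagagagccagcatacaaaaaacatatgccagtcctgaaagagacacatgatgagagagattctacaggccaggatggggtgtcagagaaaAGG
BLOC1S5, chr6:8041139-8041268, minus strand: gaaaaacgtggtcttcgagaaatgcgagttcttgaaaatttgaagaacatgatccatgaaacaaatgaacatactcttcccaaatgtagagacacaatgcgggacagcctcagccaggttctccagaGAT
VAMP7, chrX:155919813-155919880, plus strand: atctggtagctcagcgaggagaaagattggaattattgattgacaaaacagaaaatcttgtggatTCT
The exons of RGL1 and CLPB are multiples of 3 and add 37 and 29 codons, whereas skipping any of the other 4 shifts the frame. The last 3 bases are CAG in CLPB and NFIA, GGG in RGL1 and AGG in CHN1, while the exons of BLOC1S5 and VAMP7 end in GAT and TCT, without the usual final G. GC content ranged from 36.8% in VAMP7 to 54.3% in NFIA.

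The files held 5707839 informative reads for siCtrl, 7831446 for siSNRPA1 and 3396043 for siSNRPB. An informative read is one that tells inclusion from exclusion, since it fits just 1 of the 2 isoforms of an event. Reads fitting an isoform of SNRPA1 events were 118 per 1000000 such reads in siCtrl, 21.9 in siSNRPA1 and 272 in siSNRPB. For SNRPB they were 247, 337 and 30.6, so each target was lowest in the pool named for it. Of 6 markers expected in this line, 3 had events (CD44, AXL and EGFR), with summed levels of 3492 to 3676 on the same scale over the pools. CD44 made up nearly all of that sum, at 3265 in siCtrl, 3431 in siSNRPA1 and 3539 in siSNRPB. AXL was lower in the knockdown pools, at 137, 103 and 77.8, as was EGFR, at 89.7, 77.5 and 59.3. The summed level of the 4 luminal markers with events was 2.44 to 5.87 and that of the 2 blood markers 0 to 4.53, and VIM, MSN and CAV1 had no event.

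The median member was 120 nt long, with introns of 28417 nt upstream and 25166 nt downstream (medians). The longest intron had 1065861 nt, and 482 members had an intron of over 100000 nt. Beyond the intron lengths used by the rule, these exons were lower in GC content, with a median of 46.5% against 49.5% over all exons and 51.3% over exons of the same sizes with no long intron. Their ends were alike: 80.9% ended in G, against 79.9% of all exons, and 43.6% ended in CAG or AAG, against 41.8%. Wholly coding exons made up 36.8% of members and 48.2% of all exons, whereas exons wholly in 5′ untranslated regions (UTRs) made up 17.9% and 11.1%. A length that is a multiple of 3 was found for 38.3% of members and 41.0% of all exons.

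Few reads covered these exons. In siCtrl, the median member had 8 informative reads, against 18 for all exons, and the medians were 9 against 23 in siSNRPA1 and 7 against 15 in siSNRPB. Members without a single informative read made up 24.2%, 23.8% and 27.8% of those listed in the 3 pools. Most reads counted for a member fitted neither isoform, with a median of 96.9% in siCtrl, 96.3% in siSNRPA1 and 90.7% in siSNRPB. Over all exons these medians were 77.6%, 75.7% and 65.9%. In siCtrl the median was 91.7% for exons with only the upstream intron long, 91.3% with only the downstream intron long and 68.2% with neither. In siCtrl 37.1% of the listed members had at least 20 informative reads, against 52.5% of exons of these sizes with no long intron.

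**Figure D1:**
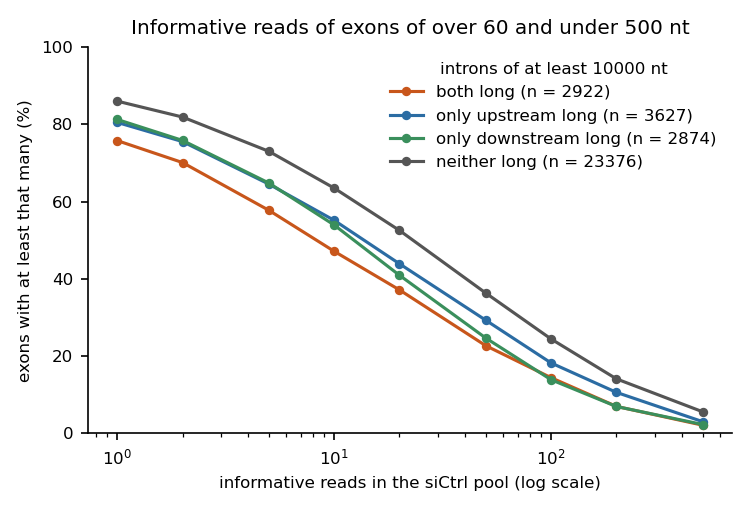
Percent of exons of over 60 and under 500 nt (y axis) with at least a given number of informative reads in the siCtrl pool (x axis, log scale), by which of the introns have at least 10000 nt. The line for exons between 2 long introns lies below the one for exons with no long intron at every depth, with 37.1% against 52.5% at 20 reads.

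An exon was tested in a comparison when both pools had at least 20 informative reads and both isoforms at least 5 reads over the 2 pools. An exon with no exclusion reads in siCtrl was thus tested against siCtrl only where the knockdown pool supplied at least 5. Exons without skipping reads in either pool were left out, and an exon near full inclusion has no room to rise by 0.1. It was called when Fisher's exact test, with Benjamini-Hochberg adjustment over all tested exons of the table, gave an adjusted p under 0.05 and the authors' inclusion level moved by at least 0.1 in the direction of the reads. The words fell and rose are used for called exons only. Of the 3082 members, 419 in 329 genes (13.6%) were tested in at least 1 comparison, and 2663 in none. Over all exons 17.4% were tested. Among the tested members, 56 overlap another tested member, as forms of 1 exon with different ends, and share reads with it. Members below the read minimum are described by their coordinates and depth only.

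After knockdown of SNRPA1, the called exons between long introns mostly fell. Falls made up 79.5% of the called members and 75.3% of all called exons. Of 373 tested members, 58 fell (15.5%) and 15 rose (4.02%). The background over all 6444 tested exons was 12.8% lower and 4.21% higher, with 17.0% called, against 19.6% of members, so both shares of the members were close to the background. The falls lay in genes such as LRP6 (the Wnt co-receptor), MYO10 (a filopodial myosin), VAMP7 (a vesicle fusion protein) and NFIA (a transcription factor), and the median fall was 0.21 in inclusion level. The median rise was 0.19. The authors' intervals of the 2 pools did not overlap for 51 of the 58 falls and 12 of the 15 rises. The call itself asks for a change of at least 0.1, and no such count over all called exons is given here.

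Among receptor, adhesion and cytoskeletal genes, exons of LRP6, MYO10 and PTK2 fell in siSNRPA1, the first and second from levels above 0.9 in siCtrl and the third from 0.70. The 394-nt coding exon of LRP6 (chr12:12244262-12244655, between introns of 22025 and 40861 nt) stood at 0.95 in siCtrl, 0.63 in siSNRPA1 and 0.56 in siSNRPB. Its reads were 361 for inclusion and 0 for exclusion in siCtrl, 479 and 23 in siSNRPA1, and 255 and 41 in siSNRPB (adjusted p = 7.53e-05 for siSNRPA1 and 2.02e-13 for siSNRPB, Fisher's exact test). Reads that skip this exon were thus seen in the knockdown pools alone. The 99-nt coding exon of MYO10, a multiple of 3 between introns of 58080 and 59441 nt, had levels of 0.93, 0.60 and 0.75 in the same order. Its exclusion reads made up 7 of 488 informative reads in siCtrl, 29 of 393 in siSNRPA1 and 15 of 216 in siSNRPB. The share of inclusion reads among informative reads went from 100% to 95.4% for LRP6 and from 98.6% to 92.6% for MYO10 in siSNRPA1. This share is not corrected for the lengths of the isoforms, so it is not a second estimate of the inclusion level. The 188-nt form of a 5′ UTR exon of PTK2, the focal adhesion kinase gene, had levels of 0.70, 0.30 and 0.30. Its fall was called in siSNRPA1 (adjusted p = 0.000159), whereas the same level in siSNRPB rested on 64 informative reads and missed the threshold (adjusted p = 0.0723, Fisher's exact test). An 89-nt form of this exon, which shares its reads, stood at 0.87, 0.54 and 0.60.

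Among signalling and trafficking genes, the 111-nt exon of RGL1, an exchange factor for Ral GTPases, had the largest fall of all members tested in siSNRPA1. Its levels were 0.83, 0.28 and 0.29, with 0 of 20 informative reads for exclusion in siCtrl, 12 of 24 in siSNRPA1 and 7 of 14 in siSNRPB. Both knockdown pools were thus lower, and siSNRPB, with 14 informative reads, could not be tested. The 68-nt exon of VAMP7, printed above, stood at 0.92, 0.71 and 0.54, with 11 exclusion reads among 282 in siCtrl, 89 among 466 in siSNRPA1 and 20 among 64 in siSNRPB. It fell in both knockdowns (adjusted p = 2.17e-08 and 1.01e-07, Fisher's exact test). The 5′ UTR exon of PPP6R3, a regulatory subunit of protein phosphatase 6, had levels of 0.56, 0.22 and 0.34 and fell in siSNRPA1 only by this rule; the 2 knockdowns did not differ past the threshold (adjusted p = 0.595, Fisher's exact test). An exon of PTPRK, a receptor tyrosine phosphatase, had levels of 0.33, 0.10 and 0.13, with 61, 18 and 7 inclusion reads against 66, 63 and 13 exclusion reads. Its fall was called in siSNRPA1 alone. The 69-nt exon of RPS6KC1, a kinase-like protein, was rarely included, with 9 of 43 informative reads in siCtrl, 0 of 44 in siSNRPA1 and 0 of 52 in siSNRPB. The 95% Wilson upper limits of its inclusion share were 8.03% and 6.88% in the knockdowns, and its fall was called in both.

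Mitochondrial, transcription and RNA-binding genes supplied the other large falls. The 87-nt exon of CLPB, which encodes a mitochondrial chaperone, had levels of 0.97, 0.50 and 0.76, with 0 of 77, 14 of 73 and 4 of 47 informative reads for exclusion. The 92-nt exon of NFIA stood at 0.85, 0.42 and 0.58, with 2 of 30 informative reads for exclusion in siCtrl and 14 of 32 in siSNRPA1. The siSNRPB pool had 6 informative reads there and was not tested. ZNF131, a zinc finger gene, had a 145-nt coding exon at 0.63, 0.33 and 0.26, with 0 exclusion reads among 143 in siCtrl, 10 among 145 in siSNRPA1 and 7 among 64 in siSNRPB. The 75-nt exon of ZC3H14, a poly(A)-binding zinc finger protein, stood at 0.74, 0.41 and 0.36 and fell in both knockdowns. Both calls were lost when reads were thinned at random to the depth of the smallest pool (adjusted p = 1 and 0.0694, Fisher's exact test). In STAU2, which encodes a double-stranded RNA-binding protein, the 146-nt form of an exon had levels of 0.60, 0.24 and 0.50; a gene lies on the other strand there, and no source used here gives the counting strand. A noncoding exon of FAM13A had levels of 0.52, 0.16 and 0.71, with 13 of 45, 37 of 53 and 0 of 16 informative reads for exclusion. It was high in siSNRPB and low in siSNRPA1, but siSNRPB was below the read minimum. A 178-nt coding exon of the same gene (chr4:88990973-88991150) was chosen after its values were seen. It stood at 0.84, 0.76 and 0.33 on 32, 85 and 21 informative reads. It is the downstream neighbour of the noncoding exon, and both events share their upstream exon. A read that joins these neighbours thus counts as skipping of the noncoding exon and as inclusion of the 178-nt exon, so the events are not independent. The 178-nt exon fell in siSNRPB (adjusted p = 0.00961) and was higher in siSNRPA1 than in siSNRPB (adjusted p = 0.0311, Fisher's exact test). Its change in siSNRPA1 was not called.

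Rises after SNRPA1 knockdown were fewer. CNOT6, a deadenylase gene, had a 187-nt coding exon at 0.71, 0.94 and 0.74, with exclusion reads of 11 among 164, 0 among 229 and 0 among 114. Its reads thus moved the same way in siSNRPB (adjusted p = 0.0128, Fisher's exact test), where the level changed by only 0.03 and no call was made. The 477-nt exon of KLHL5, from a family of ubiquitin ligase adaptors, stood at 0.36, 0.57 and 0.38. The exon of SLC25A17, a peroxisomal carrier, stood at 0.74, 0.92 and 0.82. These 3 exons were already included in part in siCtrl. The other named rises were of exons that siCtrl mostly skipped: CCSER2 went from 0.03 to 0.16 in siSNRPA1, with 7 of 216 and 44 of 252 reads for inclusion. R3HCC1L went from 0.09 to 0.28, WASF1, an actin regulator of the WAVE complex, from 0.02 to 0.14, and DIS3L2, an exoribonuclease gene, from 0.04 to 0.15. In siSNRPB these 4 exons stood at 0.05, 0.04, 0.04 and 0.02, close to siCtrl. For WASF1 and DIS3L2, however, the siSNRPB pool held 14 informative reads each, with 0 for inclusion. Both exons were thus below the read minimum in siSNRPB and were not tested, so whether they also rose there could not be judged. Outside the rule for names, and chosen after its values were seen, the exon of CPM had a larger rise, from 0.34 to 0.93, on 25 and 50 informative reads.

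**Figure D2:**
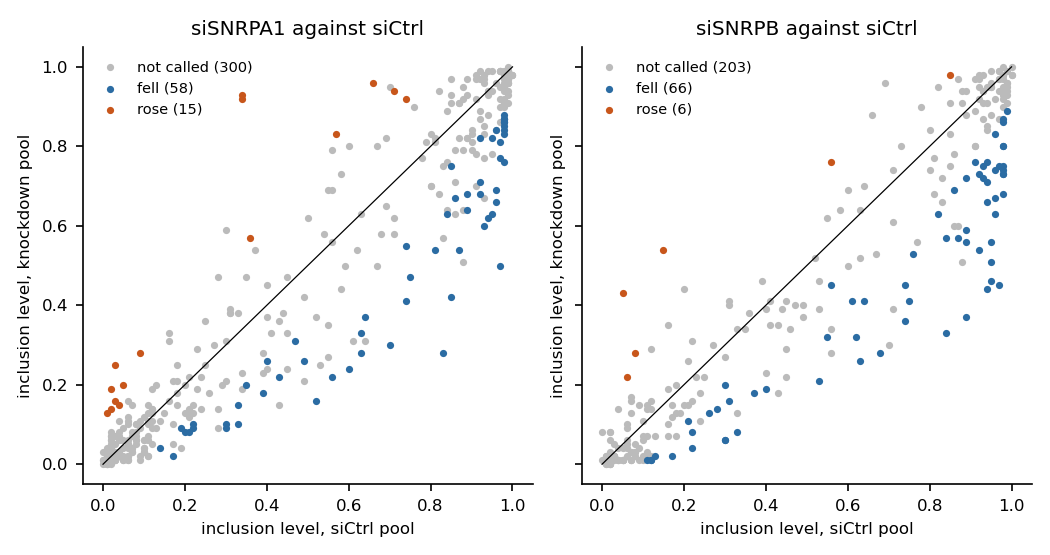
Authors' inclusion level of each tested exon between 2 long introns in the siCtrl pool (x axis, fraction) and in a knockdown pool (y axis, fraction), with siSNRPA1 on the left and siSNRPB on the right. Points under the diagonal line are lower in the knockdown; blue points fell (58 and 66), orange points rose (15 and 6) and grey points were not called.

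Knockdown of SNRPB was likewise followed by many more falls than rises. Of 275 tested members, 66 fell (24.0%) and 6 rose (2.18%), so 91.7% of the called members were lower. Over all 4234 tested exons 16.6% fell and 4.63% rose, and 21.2% were called against 26.2% of the members. The members' share of falls was thus above the background and their share of rises below it, with no test of that difference. The genes with the largest falls included those of the kinase DYRK1A, the Rac regulators CHN1 and FAM49B, and the vesicle proteins BLOC1S5 and VAMP7. The fallen exons lost a median of 0.23 in level, and those that rose gained 0.20. The authors' intervals of the pools did not overlap for 52 of the 66 falls and 5 of the 6 rises, again counted for the members alone. Results for siSNRPB rest on 1 library.

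Several of the largest falls in siSNRPB were of exons that siCtrl included nearly always, at 0.89 or more. DYRK1A (86 nt, introns of 52670 and 52299 nt) stood at 0.97 in siCtrl, 0.95 in siSNRPA1 and 0.45 in siSNRPB, with 0 of 93, 1 of 102 and 12 of 41 informative reads for exclusion. CHN1, printed above, stood at 0.94, 0.95 and 0.44, and FAM49B at 0.95, 0.91 and 0.46. Those 3 exons were low in the siSNRPB pool alone. BLOC1S5, a subunit of a complex that forms lysosome-related organelles, had levels of 0.95, 0.78 and 0.51, with 0 of 56, 12 of 142 and 19 of 72 reads for exclusion. Its siSNRPA1 level lay between the others and its change there was not called (adjusted p = 0.0618, Fisher's exact test). ERC1, which encodes a scaffold of the cell cortex, had a 132-nt exon at 0.96, 0.84 and 0.63, with exclusion reads of 1 among 402, 8 among 460 and 6 among 167. Here the level moved far more than the read share, which went from 99.8% to 96.4% inclusion in siSNRPB (adjusted p = 0.0122, Fisher's exact test). NT5C2, a cytosolic nucleotidase, had a 74-nt exon at 0.89, 0.68 and 0.56 and fell in both knockdowns.

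Further falls in siSNRPB came from the gene lists. The 78-nt exon of CAP2, an actin regulator, stood at 0.98, 0.86 and 0.68, with 0 of 218, 1 of 172 and 10 of 126 informative reads for exclusion. USP25, a deubiquitinase, had a 124-nt exon at 0.98, 0.91 and 0.73. The exon of STAU1, a double-stranded RNA-binding protein and relative of STAU2, stood at 0.82, 0.68 and 0.63, and that of ARHGAP22, a GTPase-activating protein, at 0.94, 0.79 and 0.71. The 93-nt exon of SEC24B, a coat protein of vesicles leaving the endoplasmic reticulum, was little used, at 0.11, 0.02 and 0.01, with inclusion reads of 32 among 230, 7 among 269 and 1 among 167. It fell in siSNRPB by the rule, whereas its fall of 0.09 in siSNRPA1 was just under the size needed (adjusted p = 5.25e-05, Fisher's exact test). In SLC38A1, an amino acid transporter, 2 exons fell in siSNRPB. The 215-nt exon went from 0.99 in siCtrl and 0.97 in siSNRPA1 to 0.89, and a 123-nt exon in the 5′ UTR from 0.31 and 0.38 to 0.16.

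The 6 rises in siSNRPB were all in exons named here. The 5′ UTR exon of FOXN3, a forkhead repressor, between introns of 132356 and 74078 nt, had levels of 0.05, 0.20 and 0.43. Its inclusion reads were 3 of 23 in siCtrl, 29 of 39 in siSNRPA1 and 28 of 30 in siSNRPB, and it was the only member that rose in both knockdowns. NFATC3, a calcium-regulated transcription factor, stood at 0.15, 0.13 and 0.54, with 7 of 23, 12 of 42 and 18 of 21 reads for inclusion; a gene lies on the other strand there. MICAL2, an actin-oxidising enzyme, stood at 0.56, 0.69 and 0.76. ARHGEF7, an exchange factor for Rac and Cdc42, stood at 0.85, 0.91 and 0.98. CREM, a cyclic AMP-responsive transcription factor, stood at 0.06, 0.12 and 0.22, and LYRM4, of mitochondrial iron-sulfur cluster assembly, at 0.08, 0.06 and 0.28.

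**Figure D3:**
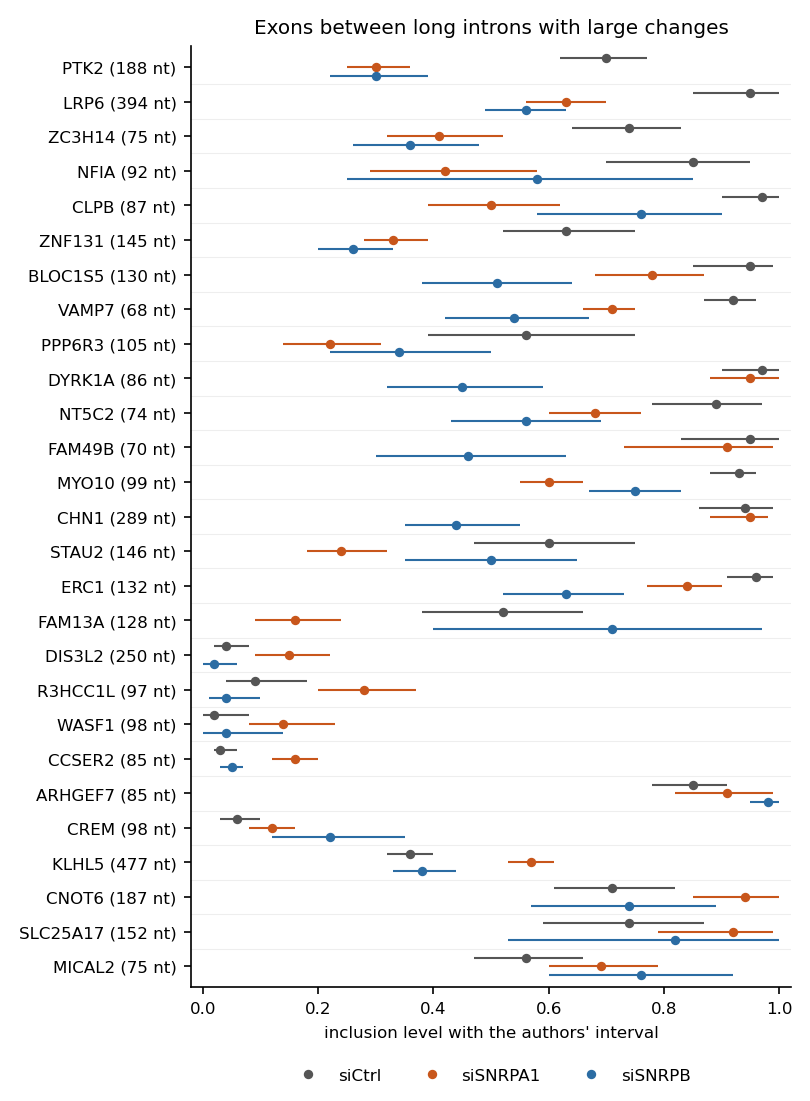
Authors' inclusion level (x axis, fraction from 0 to 1; points) with the authors' interval, whose width is not stated (lines), for the named exons with the largest falls and rises in either knockdown and at least 30 informative reads in both pools compared (y axis, gene and exon length). Grey is siCtrl, orange siSNRPA1 and blue siSNRPB; DYRK1A, CHN1 and FAM49B lie near 0.95 in siCtrl and siSNRPA1 and below 0.5 in siSNRPB, whereas LRP6 and ZNF131 are low in both knockdowns.

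By gene list, falls outnumbered rises in most groups, on few exons each. The background over all tested exons was 12.8% lower and 4.21% higher in siSNRPA1 and 16.6% and 4.63% in siSNRPB. For siSNRPA1, 7 of 25 tested exons of cytoskeleton and adhesion genes fell and 0 rose (median change -0.02), and 9 of 38 exons of transcription and chromatin genes fell while 2 rose (median -0.05). The list medians lay between -0.08 and -0.005, and the median over all tested exons was -0.02. Over all tested exons of the same genes, with introns of any length, the cytoskeleton list had 20 falls and 15 rises among 235 and the transcription list 55 and 25 among 435, so the cytoskeleton list as a whole was far more balanced than its members. Kinase and growth signalling genes had 7 falls and 0 rises among 32 exons (47 and 10 among 281 for all exons of these genes), with YAP1, a Hippo pathway coactivator, at 0.74, 0.55 and 0.45. RNA-binding genes had 4 falls and 1 rise among 18, with CELF2, a splicing regulator, at 0.89, 0.64 and 0.59. Small GTPase regulators had 2 falls among 11, membrane traffic 2 among 13, the ubiquitin system 1 fall and 1 rise among 10, and channels and transporters 1 fall and 2 rises among 24. Over all exons of each list, between 14.9% and 23.4% were called in siSNRPA1 and between 19.1% and 33.3% in siSNRPB. For siSNRPB, the counts of falls were 4 of 16 exons for the cytoskeleton list, 3 of 11 for GTPase regulators, 5 of 22 for kinases and signalling and 5 of 29 for transcription and chromatin. They were 3 of 14 for RNA-binding genes, 2 of 8 for the ubiquitin system, 2 of 11 for membrane traffic and 2 of 15 for channels and transporters. Rises numbered 1, 1 and 2 in the cytoskeleton, GTPase and transcription lists and 0 in the other 5. All exons of the cytoskeleton list had 22 falls and 15 rises among 172 there. The list medians in siSNRPB lay between -0.08 and -0.01, against -0.01 over all tested exons. The lists hold forms of the same exon: 2 of the 7 cytoskeleton falls are PTK2 forms, and 2 of the 4 RNA-binding falls are STAU2 forms. Other named members of the lists were BTRC, an F-box protein (0.75, 0.47 and 0.41; both falls lost their call at thinned depth, adjusted p = 0.611 and 0.0912, Fisher's exact test), PARD3, a polarity scaffold (0.92, 0.82 and 0.73), AGAP1, an Arf regulator, TRPC1, a cation channel, NCOA1, a nuclear receptor coactivator, and PACSIN2, a membrane-bending protein. In AGAP1 the authors' levels of 0.22, 0.10 and 0.08 stood far below the inclusion-read shares of 98.1%, 65.5% and 70%, so the 2 measures differ in height there while both fell.

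The 2 knockdowns share the siCtrl pool, so their falls are given side by side only. Of 218 members tested in all 3 comparisons, 22 fell in both knockdowns, 19 in siSNRPA1 alone, 29 in siSNRPB alone, and 140 were called against siCtrl in neither. As shares these were 10.1%, 8.72%, 13.3% and 64.2%, against 6.49%, 5.65%, 9.38% and 71.8% of all 3454 exons tested in all 3 comparisons, with no test of these differences. The median level of these members was 0.40 in siCtrl, 0.305 in siSNRPA1 and 0.335 in siSNRPB. Exons above 0.8 numbered 70 in siCtrl, 50 in siSNRPA1 and 42 in siSNRPB, and exons below 0.2 numbered 77, 88 and 88. The same shift was present over all 3454 exons, with medians of 0.28, 0.24 and 0.26 and with 835, 651 and 646 exons above 0.8. Members with no exclusion read numbered 17 in siCtrl, 0 in siSNRPA1 and 8 in siSNRPB, and the pools differ in depth. Counted over all tested members, 23 fell in both, 1 rose in both and 0 moved in opposite directions. For exons that rose in both or moved in opposite directions, no count over all exons is given here. Besides those named above, the members that fell in both include exons of DLG1, a polarity scaffold, GSK3B, a kinase of Wnt and insulin signalling, and PKP4, a junctional armadillo protein. They also include exons of DPY30 and GATAD2A, subunits of chromatin complexes. GATAD2A inclusion reads made up 70.3% in siCtrl, 45.1% in siSNRPA1 and 16.1% in siSNRPB, and PKP4 inclusion reads 92.9%, 80.2% and 74.7%.

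Compared directly, the knockdowns differed in 37 of 306 tested members (12.1%, against 14.6% of all 5067 tested exons). Of these, 31 (10.1%) were higher in siSNRPA1 and 6 (1.96%) lower, against 8.25% and 6.39% over all exons. Most differences of the members were thus exons with lower inclusion in siSNRPB. CHN1, DYRK1A and FAM49B, given above, led the list (adjusted p = 3.04e-11, 2.48e-05 and 0.000445, Fisher's exact test). The exon of C9orf3, an aminopeptidase gene, stood at 0.30 in siCtrl, 0.59 in siSNRPA1 and 0.20 in siSNRPB, with 4 of 30, 19 of 104 and 28 of 56 reads for exclusion. Its read share was about the same in siCtrl and siSNRPA1 (86.7% and 81.7%), although the levels differ. ERI3, an exoribonuclease gene, had a 278-nt coding exon at 0.76, 0.90 and 0.53. Lower in siSNRPA1 were LYRM4, given above, and MCTP1, a C2-domain membrane protein, at 0.35, 0.20 and 0.34, with 96, 73 and 49 inclusion reads against 89, 146 and 47 exclusion reads. BAG4, a chaperone regulator, was lower as well, at 0.95, 0.82 and 0.95. The exon of FRYL, chosen after its values were seen, had the largest difference, 0.18 in siSNRPA1 and 0.94 in siSNRPB, on 22 and 54 informative reads, with 0.39 in siCtrl.

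**Figure D4:**
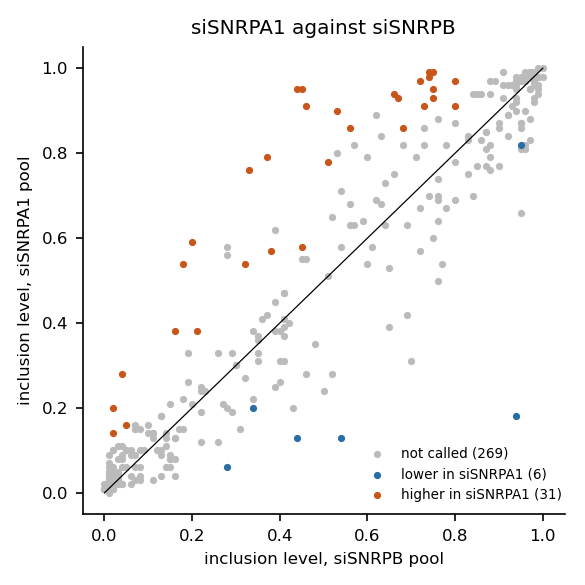
Authors' inclusion level of the 306 exons between 2 long introns tested between the knockdowns, in siSNRPB (x axis, fraction) and siSNRPA1 (y axis, fraction). The 31 orange points are higher in siSNRPA1, the 6 blue points lower and the grey points not called.

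At equal depth some of the named calls were lost. With reads thinned at random to the smallest pool, those of CNOT6, R3HCC1L, SLC25A17, PTPRK, CELF2, PARD3, BAG4 and the 146-nt STAU2 form missed the threshold in siSNRPA1 (adjusted p from 0.0533 to 0.379, Fisher's exact test). In siSNRPB those of ERC1, MICAL2 and PARD3 did (0.0593 to 0.0969).

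Set beside exons of the same sizes with other introns, the share that fell was highest for exons between 2 long introns in both knockdowns. In siSNRPA1 it was 15.5%, against 12.2% with only the upstream intron long, 11.0% with only the downstream intron long and 11.6% with neither. In siSNRPB it was 24.0%, against 17.9%, 13.1% and 16.4%. The siCtrl level also differed between the groups. Tested members had a median siCtrl level of 0.40 in the siSNRPA1 comparison and 0.53 in the siSNRPB comparison, against 0.33 and 0.34 over all exons. Whether the siCtrl level accounts for the shares was not tested. Among exons above 0.8 in siCtrl, 24.2% of 128 members fell in siSNRPA1, against 17.7%, 19.1% and 20.6% in the other 3 groups. In siSNRPB 35.6% of 104 members did, against 27.1%, 27.9% and 30.8%. In all 4 groups the minimum of 5 exclusion reads favours exons skipped in a knockdown pool. These are thus not shares of all exons above 0.8. Among exons from 0.2 to 0.8, 22.2% of members fell in siSNRPA1 against 17.4% to 18.1%, and 29.3% in siSNRPB against 21.1% to 24.1%. The share of members was the highest of the 4 groups in these bins. Below 0.2 it was not, at 2.19% of members against 1.98% to 4.63% in siSNRPA1 and 5.62% against 1.82% to 6.25% in siSNRPB. The differences between groups were not tested. With the share of inclusion reads in place of the level, 18.8% of members were called in siSNRPA1, below the 19.3% of all exons, and 32.4% against 24.1% in siSNRPB.

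**Figure D5:**
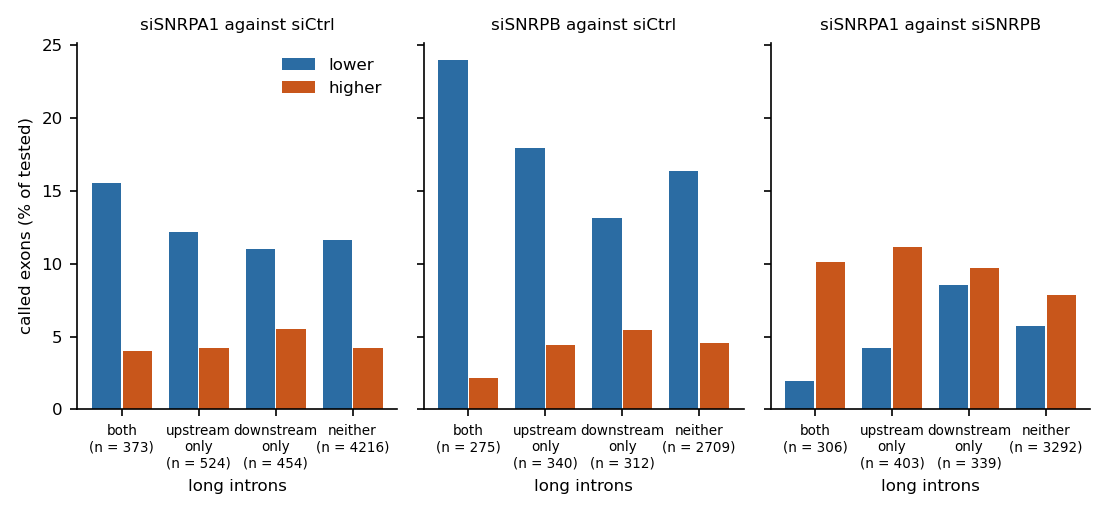
Percent of tested exons of over 60 and under 500 nt called lower (blue) or higher (orange) in each comparison (y axis, bars from 0), by which introns have at least 10000 nt (x axis, with the number tested). The bar for falls is highest for exons between 2 long introns in both comparisons with siCtrl, at 15.5% and 24.0%.

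Within the members, falls were unevenly spread, and median siCtrl levels are given beside some of the splits. With a shorter intron of under 20000 nt, 32 of 241 members fell in siSNRPA1 and 36 of 176 in siSNRPB. From 20000 nt to under 50000 nt, 25 of 119 and 25 of 85 fell, and with 50000 nt or more 1 of 13 and 5 of 14. The median siCtrl level rose over these bins. It went from 0.35 to 0.61 and 0.80 in the siSNRPA1 comparison, and from 0.43 to 0.63 and 0.875 in the siSNRPB comparison. The last bin, of 13 and 14 exons, had the lowest share of falls in siSNRPA1 and the highest in siSNRPB. Wholly coding members, at a median siCtrl level of 0.86 in the siSNRPA1 comparison, fell in 38 of 156 cases there and in 39 of 128 in siSNRPB. Of 5′ UTR members, at 0.11, 11 of 68 fell in siSNRPA1, and of partly coding members, at 0.245, 4 of 80. Members whose length is a multiple of 3 fell in 22.2% of 144 cases in siSNRPA1 and other members in 11.4% of 229, at median siCtrl levels of 0.48 and 0.34. In siSNRPB the shares were 28.7% and 21.0%, at siCtrl medians of 0.525 and 0.55. By length, 20 of 96 members of up to 100 nt, 26 of 136 of over 100 and up to 150 nt, and 12 of 141 of over 150 nt fell in siSNRPA1. Their siCtrl medians were 0.635, 0.30 and 0.41. When the upstream intron was the longer one, 36 of 210 fell in siSNRPA1 and 43 of 160 in siSNRPB, and when the downstream intron was longer 22 of 163 and 23 of 115. Over all tested exons, 12.8% fell in siSNRPA1 and 16.6% in siSNRPB. The splits were made for the members alone, so they do not show whether other exons divide in the same way. None of these splits was tested, and the part played by the siCtrl level was not tested.

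Most members with enough reads missed the call, which does not show that their level stayed the same. Of the 218 members tested in all 3 comparisons, 137 were called in none (62.8%, against 68.1% of all exons so tested). The deepest of these were exons of APP, the amyloid precursor protein (1.00, 0.98 and 0.98, on 1319, 2105 and 993 informative reads), SAE1, a subunit of the SUMO-activating enzyme (0.01, 0.01 and 0.00), and ATP6V0E1, a proton pump subunit (0.99, 1.00 and 0.99). TOR1AIP2, a torsin activator, stood at 0.99, 0.96 and 0.94, and SCRN1 at 0.99, 0.99 and 0.96. In each of them 1 of the 2 isoforms had few reads in every pool, and several small shifts passed the adjusted p alone, as in APP (0.0038 in siSNRPA1, Fisher's exact test). At the edge of the rule, the tested exons with the shorter intron just under 10000 nt were those of NEDD4 (9993 nt), PLPP4 (9984 nt) and LINC00680 (9959 nt). Their siCtrl levels were 0.13, 0.95 and 0.95, and none was called. Those just above it were NDUFAF2 (10028 nt), SLC38A1 (10039 nt, described above) and IKBIP (10109 nt), with siCtrl levels of 0.02, 0.99 and 0.97.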

How the data were processed

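Skipped exons were measured by RNA sequencing of 6 libraries from a stranded kit for small amounts of total RNA, per the labels' protocols. The submitters' processing notes name STAR 2.7 and hg38; the column names are those of MISO, whose version and settings, and the way the libraries of a group were joined, no source used here gives. Per group, the authors deposited an inclusion level per event, a fraction from 0 to 1 (posterior mean, per the file headers), its interval, and reads by class. In 2 comparison files the authors deposited the difference in level, which is a score between -1 and 1, and its Bayes factor (the ratio of evidence for change over no change). These differences equalled those of the summaries within rounding for 2785 of 2785 and 2321 of 2321 members.

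Groups followed the knockdown in the labels. Fisher's exact test (two-sided) and 95% Wilson intervals were computed on informative reads with scipy 1.17.1 and pandas 2.3.3 (numpy 2.4.6) under Python 3.11.15. Both cover counting error at most, since each group is 1 pool without replicates. No molecular identifiers are described, so copies of 1 molecule could not be told apart. The procedure was tested on simulated data. Gene names, exon places and sequences came from GENCODE 29, which matched 94.4% of members exactly. Introns were counted as gaps between the middle exon of an event and its flanking exons. Where 1 middle exon had events with and without long introns, the event meeting the rule was used (154 members). The members, gene lists and tests were chosen with earlier results of these data known. Exons were named by a rule: for each knockdown the 10 largest falls and 8 largest rises of called members (a minimum of 30 informative reads in each pool, 1 per gene); up to 3 called members per list; the 5 largest differences each way between knockdowns; the 5 deepest members called in none. For 1 gene that meets it, the result is not reported here. Alternatives changed read minimums, the size of change, the measure, depth, intron length, event choice and the call. Columns with values of single samples that were left unused numbered 0.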

Additional observations from a re-analysis of the deposited data

How the results depend on the processing

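The called members numbered 73 against siCtrl in siSNRPA1 and 72 in siSNRPB, with 37 in the direct comparison. The counts under the other settings are of members alone. They do not show how the members stand to all exons under each setting, which is given above for the share of inclusion reads only. At least 10 informative reads gave 56 between the knockdowns, and at least 50 gave 47, 43 and 20. In siSNRPA1 the 50-read minimum left 44 falls and 3 rises. A difference of at least 0.2 left 39, 43 and 24, counts divided by 2 left 21, 26 and 11, and thinning to the smallest pool left 23 in siSNRPA1; these settings use fewer reads or a larger change by construction. Introns of at least 5000 nt gave 147, 139 and 99, and of at least 20000 nt 30, 33 and 20, because the rule then holds more or fewer exons. With 1 exon per gene 46 were called in siSNRPA1. The share of inclusion reads gave 70, 89 and 52, and the authors' Bayes factor of at least 10 gave 68 and 59; it is not given between the knockdowns and was not run there. Keeping only exons whose event with most reads meets the rule gave 71, 71 and 37, and leaving out exons beside a gene on the other strand 69, 69 and 32; both were chosen after seeing the data. Falls outnumbered rises against siCtrl under each of these settings. No named exon reversed. By read share the changes of LRP6, MYO10, ZNF131, PARD3, BAG4, CNOT6 and KLHL5 in siSNRPA1 and of ERC1, CAP2, MYO10, PARD3, ARHGEF7 and the 215-nt SLC38A1 exon in siSNRPB were under 0.1; the cause was not tested. Of 36 named exons called in siSNRPA1, thinning ended the call of 10 and left 15. Of 32 in siSNRPB it ended 5 and left 22. Of 16 between the knockdowns it ended 4 (BAG4, BLOC1S5, CAP2 and USP25) and left 12. Named exons of siSNRPA1 and siSNRPB in neither count have no result at that depth and cannot be taken as kept. Halved counts ended 26, 18 and 10. No paired analysis was possible because each group has 1 pool of values, and for the same reason no replicate could be left out. At a median of 7 to 9 informative reads per member, most members could not be tested.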

Other observations

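The authors' Bayes factor and the informative reads did not pick the same exons. In the authors' deposited table for siSNRPA1, 197 exons between long introns had a Bayes factor of at least 10 and a difference of at least 0.1. Of these, 89 (45.2%) had fewer than 20 informative reads in a pool, and 27 had none in a pool. For siSNRPB the authors' deposited table held 162 such members, of which 89 (54.9%) had fewer than 20 informative reads in a pool and 26 had none. Over all exons 40.5% of 2719 and 52.5% of 2530 had fewer than 20. Conversely, 20 called members in siSNRPA1 and 21 in siSNRPB had a Bayes factor under 10 in the authors' deposited tables. The exon of TRPC1 had a level of 0.92 in siCtrl (26 inclusion and 0 exclusion reads), 0.68 in siSNRPA1 (34 and 9) and 0.12 in siSNRPB, where no read was informative.

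Level and read share also differed in size. The median change in the share of inclusion reads was -15.3 percentage points in the members that fell in siSNRPA1 and -17.0 points in those that fell in siSNRPB. The share changed by less than the level in 40 of the 58 and 47 of the 66 falls. In siCtrl, 18 of the 58 and 23 of the 66 fallen exons had 0 exclusion reads.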
